A study of Mus musculus with 16 samples.

Results

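The cytochrome P450 family 4 genes described here are the fatty acid hydroxylase genes Cyp4a10, Cyp4a12a, Cyp4a12b, Cyp4a14, Cyp4a31, Cyp4a32, Cyp4b1, Cyp4f13, Cyp4f14 and Cyp4v3. They were taken by gene name, without regard to their values, and are 10 of the 30277 genes in the tables. Polyadenylated RNA was sequenced from perfused kidneys of 129S1/SvlmJ mice, an inbred laboratory strain congenic for the Kl allele of Klotho (Kl), the gene of a renal co-receptor for a phosphate-regulating hormone. There were 5 libraries of Kl/Kl males and 3 of control males, all of the controls +/Kl, and 4 of Kl/Kl females and 4 of control females, all of these controls +/+. All mice shared the 129S1/SvlmJ background and were 44 to 54 days old, and the labels give renal failure for the Kl/Kl mice and healthy renal function for the controls. What the allele changes in the gene is not given in the sources used here.

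The values are TPM, reads relative to gene length and to all reads of a library, where the length is the whole genomic span of a gene with its introns. Male and female libraries were deposited in separate tables, each scaled to its own total, so Kl/Kl was tested against control within a sex. Sex, table and control genotype went together and cannot be told apart. Each library held an estimated 21.6 to 31.8 M reads. The library names each hold a different identifier, but whether each numbered replicate was another animal is not stated. If not, the p-values cover only the spread among these samples, which may be technical. Libraries are named below by group and replicate number. The targeted gene Kl was 0.0235 to 0.265 TPM in Kl/Kl males and 4.14 to 15.1 TPM in control males. It was 0.0268 to 0.518 TPM in Kl/Kl females and 9.18 to 21.2 TPM in control females.

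One library in each table stood apart. In Kl/Kl female 3, aged 54 days where the other 15 libraries came from mice at most 49 days old, kidney genes were nearly absent: the tubule gene Umod was 1.68 TPM (at least 67.5 TPM elsewhere) and the proximal tubule transporter gene Slc34a1 was 0.343 TPM (at least 89.3 TPM elsewhere). The summed level of 6 heart muscle markers was 1836 TPM there, that of 6 airway markers 1067 TPM and that of 5 adipocyte markers 1184 TPM. Its low Kl therefore does not check its label. In control male 3 mitochondrial genes took 54.3% of the summed values, and the summed level of 10 proximal tubule markers was 319 TPM, against 620 to 678 TPM in the other control males. Results are given with and without these libraries. In a bulk sample, fewer cells of a type and less RNA per cell cannot be told apart.

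Family 4 cytochromes P450 are enzymes of the endoplasmic reticulum that add a hydroxyl group to the end of a fatty acid chain, called omega-hydroxylation, with electrons passed on from cytochrome P450 reductase. In the mouse kidney they are found chiefly in the proximal tubule. The Cyp4a enzymes there turn arachidonic acid into hydroxyeicosatetraenoic acids, lipid mediators that act on vascular tone and on sodium transport, and prepare other fatty acids for oxidation in peroxisomes. In mice Cyp4a10 and Cyp4a14 are well-known targets of the fatty acid sensor PPAR-alpha, while Cyp4a12a is the main renal hydroxylase of arachidonic acid and is induced by androgens.

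Every member has the short stretch that holds the heme iron, and it shows how close the copies are. Below it is given from the reference transcripts (GENCODE M21), with the codon of the iron-binding cysteine in capitals.
Cyp4a10, Cyp4a31 and Cyp4a32: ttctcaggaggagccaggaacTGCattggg
Cyp4a12a and Cyp4a12b: ttctcaggaggagcaaggaacTGCattggg
Cyp4a14: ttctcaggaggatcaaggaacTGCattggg
Cyp4b1: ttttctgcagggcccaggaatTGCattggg
Cyp4f13: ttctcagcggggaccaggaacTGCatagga
Cyp4f14: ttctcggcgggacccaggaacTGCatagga
Cyp4v3: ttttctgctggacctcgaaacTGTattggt
Within these 30 bases Cyp4a10, Cyp4a31 and Cyp4a32 were identical, Cyp4a12a differed from Cyp4a10 at 1 position and Cyp4a14 from Cyp4a10 at 2 positions. Cyp4b1 differed from Cyp4a10 at 6 positions and Cyp4v3 from Cyp4a10 at 10 positions.

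Over the whole coding sequence Cyp4a12a and Cyp4a12b were 98.49% identical. Cyp4a10 was 97.19% identical to Cyp4a32 and 96.6% identical to Cyp4a31, but 75.18% identical to Cyp4a14. The 60-base coding windows in which the near-identical copies differ most are given next, with the differing bases in capitals. Bases 624 to 683 of the coding sequence are shown for the Cyp4a12 pair, which differs at 4 positions there and at 23 positions over all 1527 bases.
Cyp4a12a: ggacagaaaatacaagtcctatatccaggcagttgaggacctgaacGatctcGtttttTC
Cyp4a12b: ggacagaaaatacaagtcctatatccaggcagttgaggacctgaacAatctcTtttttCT
Bases 200 to 259 are shown for the other set, whose members differ at 9 positions there and at 77 positions over all 1530 bases.
Cyp4a10: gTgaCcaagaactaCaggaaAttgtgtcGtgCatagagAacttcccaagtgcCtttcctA
Cyp4a31: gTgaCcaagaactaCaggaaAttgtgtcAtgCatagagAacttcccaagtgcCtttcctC
Cyp4a32: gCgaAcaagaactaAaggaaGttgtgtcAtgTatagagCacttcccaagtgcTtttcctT
Of all 50-base stretches of a transcript, 48.9% occurred in another Cyp4 transcript for Cyp4a12a, 46.8% for Cyp4a32, 30.5% for Cyp4a10, 20.1% for Cyp4a31 and 10.3% for Cyp4b1. The share was 0.245% for Cyp4a14 and at most 2.97% for Cyp4f13, Cyp4f14 and Cyp4v3. How the authors' program assigned reads that fit several copies is not given in the sources used here, so the levels of Cyp4a12a, Cyp4a12b, Cyp4a32, Cyp4a10 and Cyp4a31 are uncertain to that extent, and those of Cyp4a14 far less.

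The male comparison asked how the kidney of mice with renal failure differs from that of healthy mice. In Kl/Kl males the set of abundant Cyp4 genes was exchanged: Cyp4a14 and Cyp4a10 rose, and Cyp4b1 and Cyp4a12a fell. Of the 10 members 6 reached the mean of 1 TPM needed for the test, Cyp4a12a through the control males alone and Cyp4a14 through the Kl/Kl males alone, so these had to differ to be tested at all. By limma 2 were higher and 2 lower at an adjusted p under 0.05. Of 8439 genes tested 3.74% were called higher and 2.18% lower (316 and 184 genes). The median log2 change, given here and below as the difference of log2(TPM + 1), was 0.62 over the 6 members and 0.19 over all genes tested. Scaling each column by its median ratio shifted the genes' log2 changes by a median of -0.188, and the same 4 members remained past the threshold in the same directions, with 5.45% of genes called higher and 8.36% lower.

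**Figure D1:**
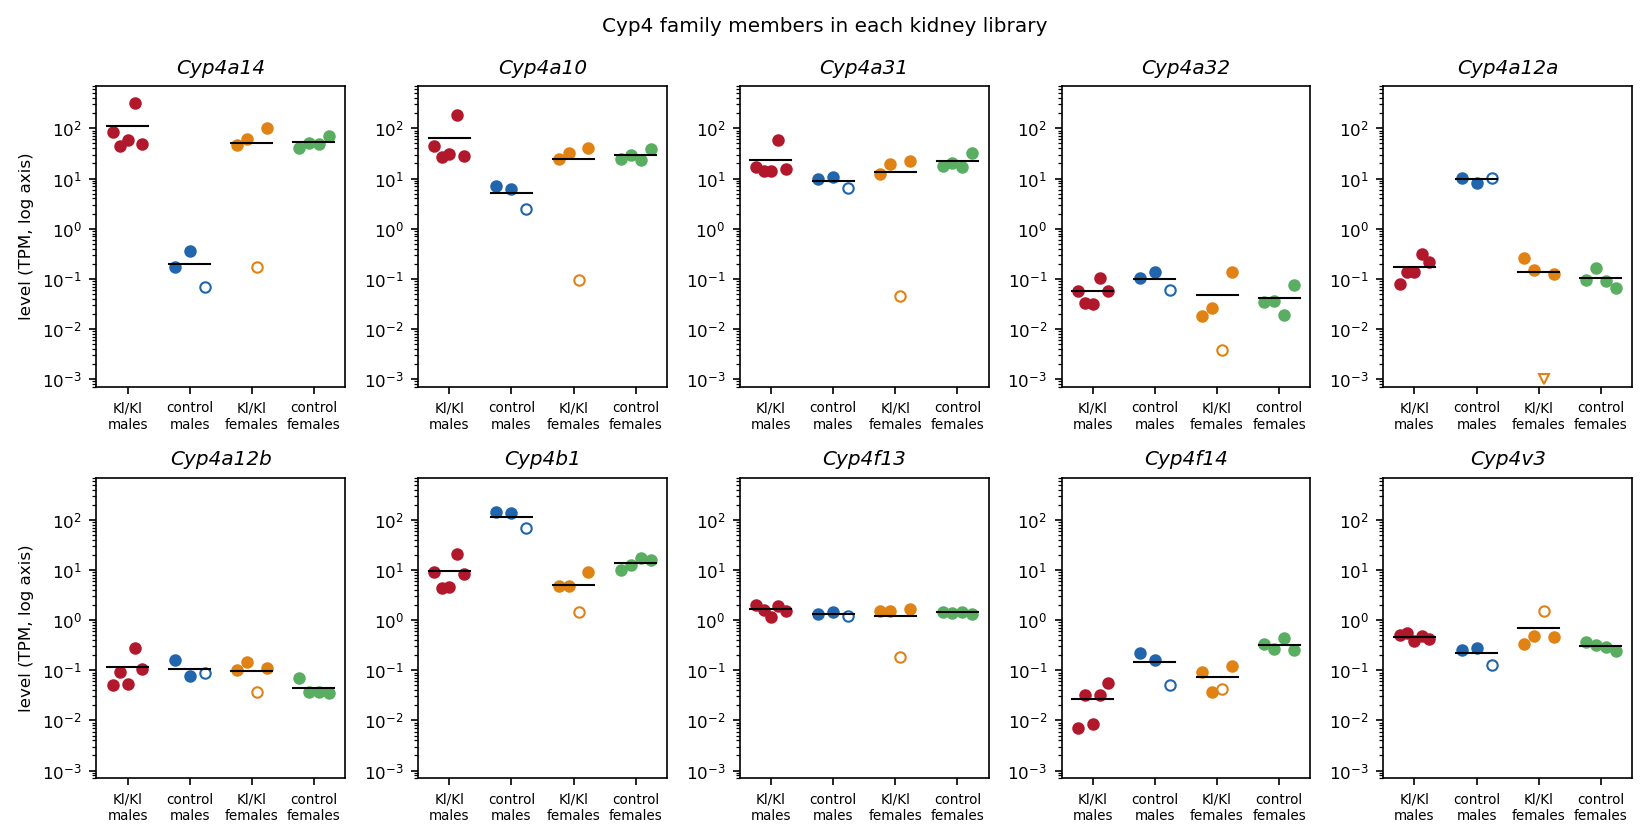
Level of each of the 10 members in every library, in TPM on a log axis, by group (Kl/Kl males, control males, Kl/Kl females, control females). Each point is 1 library, bars are group means over all libraries, hollow points are control male 3 and Kl/Kl female 3, and the hollow triangle is a gene without a read, drawn at the bottom of the axis. Cyp4a14 lies between 45.5 and 315 TPM in Kl/Kl males and at or below 0.357 TPM in control males, while Cyp4a12a and Cyp4b1 are highest in control males.

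Cyp4a14 (chromosome 4, 115343397 to 115353340, build mm39), a fatty acid omega-hydroxylase, was 84.8, 45.5, 59.6, 315 and 49.1 TPM in Kl/Kl males, against 0.169, 0.357 and 0.0673 TPM in control males. The groups were far apart, and Kl/Kl male 4 was the highest. Kl/Kl males averaged 111 ± 115 TPM (SD, n = 5) and control males 0.198 ± 0.147 TPM (SD, n = 3), a ratio of 560. Its log2 change of 6.11 (SE 0.53, limma adjusted p = 6.361e-05) ranked 1 of 8439. Without control male 3, when 3.16% of genes were called higher and 7.36% lower, its log2 change was 6.03 (limma adjusted p = 0.001778). Without Kl/Kl male 4, with 1.46% and 1.71% called, the Kl/Kl mean was 59.7 TPM and the log2 change 5.63 (limma adjusted p = 2.252e-06). Without control male 2 the control mean was 0.118 TPM.

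Cyp4a10 (chromosome 4, 115375461 to 115390847), which acts on the same kinds of fatty acid, was 44.0, 26.4, 31.2, 189 and 28.7 TPM in Kl/Kl males and 7.20, 6.08 and 2.43 TPM in control males. Every Kl/Kl male lay above every control male, and Kl/Kl male 4 was again the highest. Kl/Kl males averaged 63.8 ± 70.1 TPM (SD, n = 5), against 5.24 ± 2.50 TPM in control males (SD, n = 3). The log2 change was 3.00 (SE 0.58, limma adjusted p = 0.01419), and 2.50 without Kl/Kl male 4, whose absence lowered the Kl/Kl mean to 32.6 TPM (limma adjusted p = 0.001715). The call of Cyp4a10 was lost without control male 3 (log2 change 2.62, limma adjusted p = 0.05121). It was also lost without a filter on low values (limma adjusted p = 0.07851, with 0.803% of genes called higher) and in a fit of all 4 groups together (limma adjusted p = 0.08878, with 3.05% called higher).

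Cyp4a31 (chromosome 4, 115420846 to 115436213), a close copy of Cyp4a10, was 17.1, 14.0, 13.8, 58.1 and 15.8 TPM in Kl/Kl males and 9.91, 10.9 and 6.55 TPM in control males. The groups did not overlap, but the log2 change of 1.08 (SE 0.42) was not past the threshold (limma adjusted p = 0.1367), nor was the change of 0.88 without control male 3 (limma adjusted p = 0.2716). Without Kl/Kl male 4 the Kl/Kl mean was 15.2 instead of 23.8 TPM. Of the 6 members tested, 3 had groups that did not overlap with Kl/Kl males higher, and 2 with Kl/Kl males lower, against 19.1% and 4.40% of all genes tested. Without control male 3 these shares of all genes were 20.2% and 22.7%.

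Kl/Kl male 4, the library with the highest Cyp4a14, Cyp4a10 and Cyp4a31, had more hepatocyte marker RNA than each other male library but Kl/Kl male 1. The 8 hepatocyte markers summed to 61.3, 10.7, 15.4, 40.1 and 11.4 TPM in Kl/Kl males and to 20.8, 32.9 and 16.9 TPM in control males. Alb, the defining albumin gene, was at most 0.140 TPM in Kl/Kl males and at most 0.184 TPM in control males, and Cps1, the urea cycle gene, had no read in either group. Other markers of the list separated the groups: Apoa1 was 1.72 to 14.1 TPM in Kl/Kl males and 0.429 to 0.883 TPM in control males, Fga 4.27 to 46.5 TPM in Kl/Kl males and 1.47 to 3.86 TPM in control males, and Ttr 2.49 to 3.83 TPM in Kl/Kl males and 14.7 to 27.4 TPM in control males. The 5 adrenal cortex markers summed to 10.6, 71.1, 0.974, 1.49 and 0.970 TPM in Kl/Kl males and to at most 0.459 TPM in control males. The library with the most adrenal RNA, Kl/Kl male 2, had the lowest Cyp4a14 and Cyp4a10 of its group. The 10 proximal tubule markers summed to 321 to 543 TPM in Kl/Kl males and 319 to 678 TPM in control males, where 319 TPM belongs to control male 3. Without control male 3 the control sums were 620 to 678 TPM, and every Kl/Kl male lay below them. With all libraries, sums that did not overlap were also those of 6 markers of other tubule segments (404 to 496 TPM in Kl/Kl males and 127 to 358 TPM in control males), 4 macrophage markers (7.59 to 13.9 and 3.99 to 6.69 TPM, Kl/Kl and control males) and 4 alveolar markers (0.478 to 2.00 and 0.275 to 0.444 TPM). The part of these sums in the member levels was not tested.

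Cyp4a12a (chromosome 4, 115156243 to 115190013), the androgen-induced arachidonic acid hydroxylase of male mouse kidney, was 0.0797, 0.134, 0.136, 0.310 and 0.211 TPM in Kl/Kl males, against 10.3, 8.07 and 10.3 TPM in control males. The values did not overlap, and control male 3, low for many tubule genes, was not low for this one. The mean in Kl/Kl males was 0.174 ± 0.0893 TPM (SD, n = 5) and in control males 9.56 ± 1.29 TPM (SD, n = 3), so the Kl/Kl mean was 1.82% of control. Its log2 change was -3.16 (SE 0.135, limma adjusted p = 4.481e-07), and -3.11 without control male 3 (limma adjusted p = 2.622e-06). On this scale it had the 16th largest fall, since the added 1 TPM bounds the change of a gene that ends near 0.

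Its copy Cyp4a12b (chromosome 4, 115268821 to 115296232) did not follow it. It was 0.0514, 0.0914, 0.0542, 0.281 and 0.108 TPM in Kl/Kl males and 0.158, 0.0778 and 0.0875 TPM in control males, too low for the main test, and the groups overlapped (two-sided exact permutation p = 0.964). The ratio of Cyp4a12a to Cyp4a12b TPM, by genomic span, within a library was 1.10 to 2.51 in Kl/Kl males and 64.8 to 118 in control males. Reads of one copy placed on the other would move these ratios, and this was not tested. Without Kl/Kl male 4 the Kl/Kl mean of Cyp4a12b was 0.0762 instead of 0.117 TPM.

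Cyp4b1 (chromosome 4, 115481922 to 115504921), an extrahepatic P450 that hydroxylates short-chain fatty acids and activates several plant and fungal toxins, was 9.25, 4.43, 4.48, 21.2 and 8.37 TPM in Kl/Kl males, against 147, 134 and 69.3 TPM in control males. No Kl/Kl male came near the lowest control, control male 3. Kl/Kl males averaged 9.54 ± 6.86 TPM (SD, n = 5) and control males 117 ± 41.5 TPM (SD, n = 3), so 8.18% of the control level was left. The log2 change of -3.62 (SE 0.44, limma adjusted p = 0.000828) was the 10th largest fall, and without control male 3 it was -3.95 (limma adjusted p = 0.003476). The pseudogene Cyp4b1-ps2 averaged 4.41e-06 TPM in Kl/Kl males, which is no read, and 0.0843 TPM in control males.

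The window around the start of Cyp4b1 is shown because, of the 5 members in the RefSeq promoter table (Cyp4a32, Cyp4b1, Cyp4f13, Cyp4f14 and Cyp4v3), this is the one that passed the test in males. The 250 bases before the start are given (chr4:115647722-115647971, build GRCm38.p6, minus strand, a build other than that of the deposited coordinates), with a match to AGAACA, read on the other strand as TGTTCT, in capitals.
Cyp4b1: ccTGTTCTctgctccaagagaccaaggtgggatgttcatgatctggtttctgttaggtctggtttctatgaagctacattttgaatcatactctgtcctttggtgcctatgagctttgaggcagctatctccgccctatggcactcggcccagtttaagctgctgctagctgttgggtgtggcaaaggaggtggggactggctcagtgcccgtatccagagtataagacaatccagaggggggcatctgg
AGAACA, the core of androgen and glucocorticoid receptor sites, was searched on both strands of windows from 250 bases before to 50 bases after the start, and is found in 18.97% of all 32851 such windows in the table. It occurred 1 time in the windows of Cyp4b1 and of Cyp4a32. AGGTCA (in 16.26% of windows), the same hexamer repeated after 1 free base, which holds AGGTCA within it (in 0.03957%), and TATAAA (in 13.62%) were not in the Cyp4b1 window, and Cyp4a32 had 1 match to TATAAA. None of these motifs occurred in the windows of Cyp4f13, Cyp4f14 and Cyp4v3. A match is a string of letters and not a measured site.

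**Figure D2:**
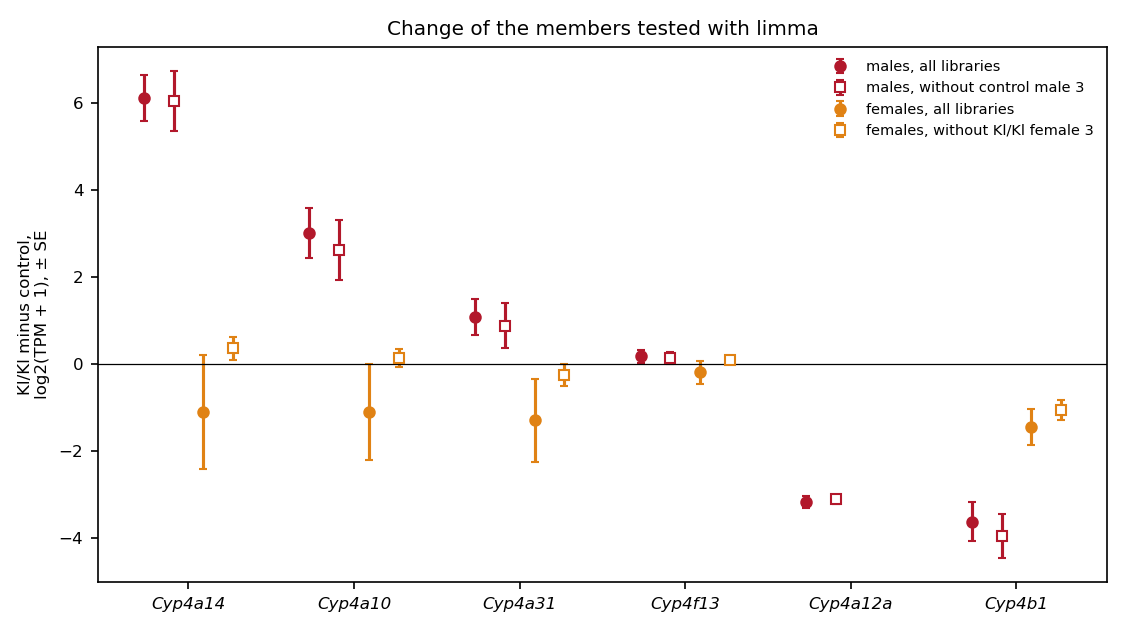
Change of the members whose mean reached 1 TPM, Kl/Kl minus control as the difference of log2(TPM + 1), with standard errors from limma, for males and females with all libraries (filled circles) and without control male 3 or Kl/Kl female 3 (open squares). In males Cyp4a14 stands at 6.11 and Cyp4b1 at -3.62, and in females without Kl/Kl female 3 the changes run from -1.06 for Cyp4b1 to 0.36 for Cyp4a14. Cyp4a12a had no female test because its mean there was below 1 TPM.

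Of the members outside the Cyp4a and Cyp4b1 genes, the Cyp4f genes encode enzymes of which several inactivate leukotriene B4. Cyp4f13 (chromosome 17, 33143662 to 33166377) was 2.02, 1.59, 1.15, 1.92 and 1.55 TPM in Kl/Kl males and 1.35, 1.45 and 1.21 TPM in control males. The groups overlapped, and the log2 change was 0.17 (SE 0.14, limma adjusted p = 0.4371). Cyp4f14 (chromosome 17, 33124044 to 33136317), a leukotriene B4 hydroxylase, was 0.00718, 0.0316, 0.00832, 0.0323 and 0.0564 TPM in Kl/Kl males and 0.226, 0.158 and 0.04998 TPM in control males. Only Kl/Kl male 5 and control male 3 crossed, and Kl/Kl males averaged 18.8% of the control level (two-sided exact permutation p = 0.0714), or 14.2% without control male 3 (exact permutation p = 0.0952, the smallest that this smaller set allows). Without control male 3, 22.7% of all genes averaging at least 1 TPM, which Cyp4f14 did not, were likewise lower without overlap.

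Cyp4v3 (chromosome 8, 45757981 to 45786254), the counterpart of a human gene mutated in a crystalline dystrophy of the retina, was 0.508, 0.552, 0.390, 0.492 and 0.417 TPM in Kl/Kl males and 0.249, 0.278 and 0.130 TPM in control males. Every Kl/Kl male lay above every control male, with a ratio of means of 2.15 (two-sided exact permutation p = 0.0357, the smallest the design allows) and of 1.79 without control male 3 (exact permutation p = 0.0952, again the smallest possible). Of all genes averaging at least 1 TPM, which Cyp4v3 did not, 19.1% were apart in this direction, and 20.2% without control male 3. Cyp4a32 (chromosome 4, 115458166 to 115478800), the copy most like Cyp4a10, was 0.0565, 0.0322, 0.0321, 0.104 and 0.0582 TPM in Kl/Kl males and 0.105, 0.136 and 0.0610 TPM in control males. These overlapped (exact permutation p = 0.0714), so this copy did not show the higher level of Cyp4a10.

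The low members could be tested on estimated reads with voom, a form of limma for counts, which called 6.00% of 18295 genes higher and 8.89% lower in males. By that fit Cyp4v3 rose (log2 change 0.835, voom adjusted p = 0.01137), and Cyp4f14 fell by 2.78 on the log2 scale (voom adjusted p = 0.01094). Both were called without control male 3 as well, where voom called 4.16% of genes higher and 8.02% lower, Cyp4v3 at 0.755 (voom adjusted p = 0.0254) and Cyp4f14 at -3.13 (voom adjusted p = 0.009092). Cyp4a32 had a log2 change of -1.24 (voom adjusted p = 0.04236), and its call was lost without control male 3 (voom adjusted p = 0.06075). Cyp4a12b had a log2 change of -0.43 (voom adjusted p = 0.5823). For the abundant members this fit gave 8.64 for Cyp4a14, 2.97 for Cyp4a10, -6.25 for Cyp4a12a and -4.10 for Cyp4b1, all past the threshold.

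The female comparison asked the same question within the other table, and there limma called 0 of the 5 members tested, with all libraries and without Kl/Kl female 3. An unadjusted p under 0.05 was seen for 1 of the 5 in each case, and for 414 of the 8596 genes tested with all libraries. Fits by voom called 0 members as well, and 0.00% of genes with all libraries, or 0.0546% higher and 0.0710% lower without Kl/Kl female 3. By limma, of 8596 genes 0.00% were called higher and 0.0349% lower, and without Kl/Kl female 3, of 8748 genes, 0.0572% and 0.0457%. The median log2 change was -1.10 over the members and -0.16 over all genes tested with all libraries, and 0.09 and 0.06 without Kl/Kl female 3.

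Cyp4b1 and, at a far lower level, Cyp4f14 were the members whose female groups did not overlap with all libraries. Cyp4b1 was 4.80, 4.89, 1.42 and 8.93 TPM in Kl/Kl females, where 1.42 TPM belongs to Kl/Kl female 3, and 9.98, 12.6, 17.3 and 15.5 TPM in control females. Every Kl/Kl female lay below every control female, as for 3.54% of all genes tested, and 3.90% without Kl/Kl female 3. Kl/Kl females averaged 36.2% of the control level with all libraries (two-sided exact permutation p = 0.0286) and 44.8% without Kl/Kl female 3 (exact permutation p = 0.0571), each the smallest p its design allows. The log2 change of -1.45 (SE 0.41) had a limma adjusted p = 0.745, and that of -1.06 (SE 0.23) without Kl/Kl female 3 a limma adjusted p = 0.09403.

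Cyp4a14 and Cyp4a10, called in males, and Cyp4a31, not called in males, overlapped between the female groups. Cyp4a14 was 46.8, 61.2, 0.174 and 100.3 TPM in Kl/Kl females and 39.7, 51.4, 48.5 and 70.2 TPM in control females. Outside Kl/Kl female 3 the groups overlapped, and the log2 change was 0.36 (SE 0.27, limma adjusted p = 0.4873). It was -1.10 (limma adjusted p = 0.745) with that library. Cyp4a10 was 24.02, 32.7, 0.0933 and 40.1 TPM in Kl/Kl females and 24.7, 29.8, 23.5 and 39.5 TPM in control females, with a log2 change of 0.13 without Kl/Kl female 3 (limma adjusted p = 0.7663) and -1.09 with it. Cyp4a31 was 12.4, 19.1, 0.0451 and 22.5 TPM in Kl/Kl females and 17.4, 20.8, 17.3 and 32.0 TPM in control females. Its log2 change was -0.26 without Kl/Kl female 3 (limma adjusted p = 0.592) and -1.30 with it. The third value of each Kl/Kl list is the library that lacked kidney genes, and all of these Cyp4a levels were close to 0 there.

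Of the remaining members, Cyp4a12a was low in females, at 0.259, 0.153 and 0.125 TPM in Kl/Kl females 1, 2 and 4, with no read in Kl/Kl female 3, and 0.0953, 0.162, 0.0915 and 0.0655 TPM in control females. Cyp4a12b was 0.1004, 0.144, 0.0372 and 0.114 TPM in Kl/Kl females and 0.0707, 0.0374, 0.0372 and 0.0359 TPM in control females. Without Kl/Kl female 3 each Kl/Kl female lay above each control for Cyp4a12b (exact permutation p = 0.0571, the smallest possible, and voom adjusted p = 0.06652). Of genes averaging at least 1 TPM, which Cyp4a12b did not, 12.2% were apart in this direction without that library. Cyp4f14, the leukotriene B4 hydroxylase gene, was 0.0912, 0.0364, 0.0415 and 0.120 TPM in Kl/Kl females and 0.328, 0.266, 0.434 and 0.256 TPM in control females. The groups did not overlap, and Kl/Kl females averaged 22.5% of the control level (exact permutation p = 0.0286). Without Kl/Kl female 3 they averaged 25.7% (exact permutation p = 0.0571, voom log2 change -2.10, voom adjusted p = 0.06692). Of genes averaging at least 1 TPM, which Cyp4f14 did not, 3.54% were likewise lower without overlap, and 3.90% without Kl/Kl female 3.

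Cyp4v3 stood out in the library that lacked kidney genes. It was 0.337, 0.491, 1.49 and 0.465 TPM in Kl/Kl females, the third value being Kl/Kl female 3 and the highest Cyp4v3 of all 16 libraries, and 0.360, 0.313, 0.296 and 0.238 TPM in control females. The Kl/Kl mean was 0.696 TPM with that library and 0.431 TPM without it, against 0.302 TPM in control females. Cyp4f13 was 1.55, 1.54, 0.181 and 1.67 TPM in Kl/Kl females and 1.46, 1.40, 1.48 and 1.35 TPM in control females, a log2 change of 0.09 without Kl/Kl female 3 (limma adjusted p = 0.3374). Without that library the groups did not overlap for Cyp4f13, Kl/Kl females being higher, as for 12.2% of all genes tested (4.79% with all libraries). Cyp4a32 was 0.0183, 0.0261, 0.00377 and 0.139 TPM in Kl/Kl females and 0.0350, 0.0354, 0.0187 and 0.0764 TPM in control females. These overlapped, and the Kl/Kl mean of Cyp4a32 was 0.0161 instead of 0.0468 TPM without Kl/Kl female 4.

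Whether the change differed between the sexes was tested directly, as the male change minus the female change in a model of all 16 libraries. With all libraries Cyp4a12a was the only one of 6 members called, at a log2 difference of -3.20 (SE 0.15, limma adjusted p = 1.368e-08), where 0.00% of 8535 genes were called higher and 0.211% lower. Its female means were 0.134 TPM in Kl/Kl and 0.104 TPM in control females, so on the log2(TPM + 1) scale its female change could only lie near 0, and the difference restates the male change. Fits by voom called 0 members, with -5.47 for Cyp4a12a (voom adjusted p = 0.1736), where 0.0697% of genes were higher and 0.289% lower. Without Kl/Kl female 3 and control male 3, 3 members were called, against 0.460% of genes higher and 3.43% lower. They were Cyp4a14 (5.68, SE 0.78, limma adjusted p = 0.001267), Cyp4b1 (-2.89, SE 0.59, limma adjusted p = 0.01708) and Cyp4a12a (-3.20, SE 0.12, limma adjusted p = 1.898e-09). Voom called the same 3 members without these libraries, with 0.693% of genes higher and 2.64% lower. By limma Cyp4a10 (2.49, limma adjusted p = 0.09468) and Cyp4a31 (1.14, limma adjusted p = 0.3161) were not called. With all libraries the difference was 7.22 for Cyp4a14 (limma adjusted p = 0.08807), -2.17 for Cyp4b1 (limma adjusted p = 0.5078) and 4.09 for Cyp4a10 (limma adjusted p = 0.5418). Control males were +/Kl and control females +/+, so sex cannot be told apart from that genotype.

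Set side by side, with no test because the tables were scaled separately, the controls of the sexes differed in the same genes. Control males had 0.0673 to 0.357 TPM of Cyp4a14 and control females 39.7 to 70.2 TPM. Cyp4a10 was 2.43 to 7.20 TPM in control males and 23.5 to 39.5 TPM in control females, and Cyp4a31 6.55 to 10.9 and 17.3 to 32.0 TPM in these groups. The reverse order held for Cyp4a12a, with 8.07 to 10.3 TPM in control males and 0.0655 to 0.162 TPM in control females, and for Cyp4b1, with 69.3 to 147 and 9.98 to 17.3 TPM. In all 5 genes the ranges were apart. The ratio of the table totals was 1.08, which does not bound an offset of a single gene between the tables. Sex, table and control genotype cannot be told apart here. The Kl/Kl males had 45.5 to 315 TPM of Cyp4a14, 26.4 to 189 TPM of Cyp4a10, 0.0797 to 0.310 TPM of Cyp4a12a and 4.43 to 21.2 TPM of Cyp4b1. These ranges overlapped those of control females in each of the 4 genes and those of control males in none. The 4 genes are those called between Kl/Kl and control males, so the lack of overlap with control males comes with that choice. Cyp4f14 did not share this order: it was lowest in Kl/Kl males (0.00718 to 0.0564 TPM) and highest in control females (0.256 to 0.434 TPM), with control males (0.04998 to 0.226 TPM) and Kl/Kl females (0.0364 to 0.120 TPM) overlapping between them.

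**Figure D3:**
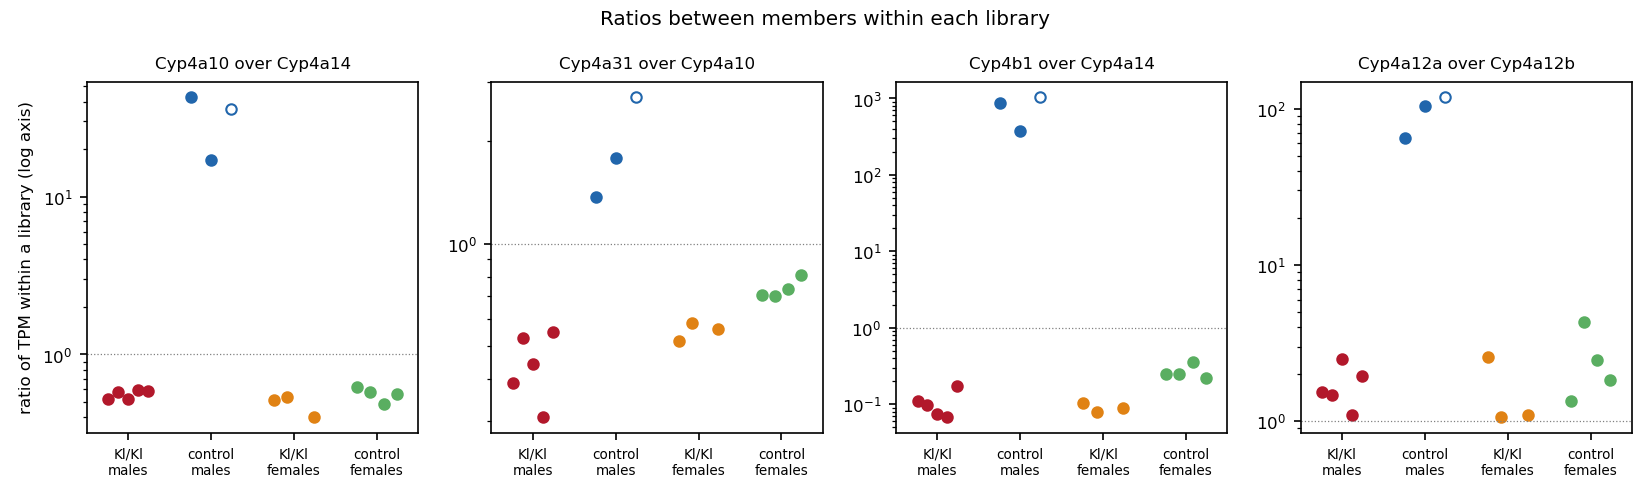
Ratio of 2 members' TPM within each library, on log axes with a dotted line at 1, for Kl/Kl males, control males, Kl/Kl females and control females. The TPM are by genomic span, so the line at 1 does not mark equal numbers of transcripts. Each point is 1 library, the hollow point is control male 3, and Kl/Kl female 3 is left out. Control males stand apart in all 4 ratios, for example at 17.1 to 42.5 for Cyp4a10 over Cyp4a14, where the other groups lie between 0.400 and 0.623.

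Ratios within a library do not depend on how its column was scaled. Each TPM is divided by the genomic span of its gene, so a ratio is not one of transcripts. Its place above or below 1 does not tell which member was more abundant, and only differences between groups are read here. The ratio of Cyp4a10 to Cyp4a14 TPM was 0.519 to 0.599 in Kl/Kl males, 17.1 to 42.5 in control males, 0.400 to 0.534 in Kl/Kl females without Kl/Kl female 3 and 0.484 to 0.623 in control females. Kl/Kl male 4, with 315 TPM of Cyp4a14, had the highest ratio of its group, 0.599, and the other 4 Kl/Kl males ran from 0.519 to 0.585. The ratio of Cyp4a31 to Cyp4a10 was 0.308 to 0.549 in Kl/Kl males, 1.38 to 2.69 in control males, 0.517 to 0.586 in Kl/Kl females without Kl/Kl female 3 and 0.699 to 0.811 in control females. Here the Kl/Kl females lay below the control females, though neither gene was called in females. The ratio of Cyp4b1 to Cyp4a14 was 0.0672 to 0.171 in Kl/Kl males and 376 to 1030 in control males. It was 0.0799 to 0.103 in Kl/Kl females without Kl/Kl female 3 and 0.221 to 0.356 in control females.

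To compare members with each other, estimated reads were divided by transcript length instead of genomic span and by library size (RPKM by transcript). Summed over the 10 members they came to 847, 528, 641, 3019 and 605 RPKM in Kl/Kl males, against 1849, 1708 and 1517 in control males. Outside Kl/Kl male 4 the Kl/Kl males thus had less Cyp4 RNA in sum than each control male. Kl/Kl females had 497, 643, 54.2 and 871 RPKM and control females 532, 706, 665 and 899 RPKM. Cyp4b1 made up 7.84% to 16.1% of the sum in Kl/Kl males and 79.2% to 86.7% in control males, and it was the most abundant member of every control male. Cyp4a14 and Cyp4a10 made up 31.0% to 38.2% and 33.1% to 41.9% in Kl/Kl males, and 0.0252% to 0.0756% and 1.67% to 2.55% in control males. Cyp4a12a took 0.122% to 0.466% in Kl/Kl males and 5.99% to 13.5% in control males.

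**Figure D4:**
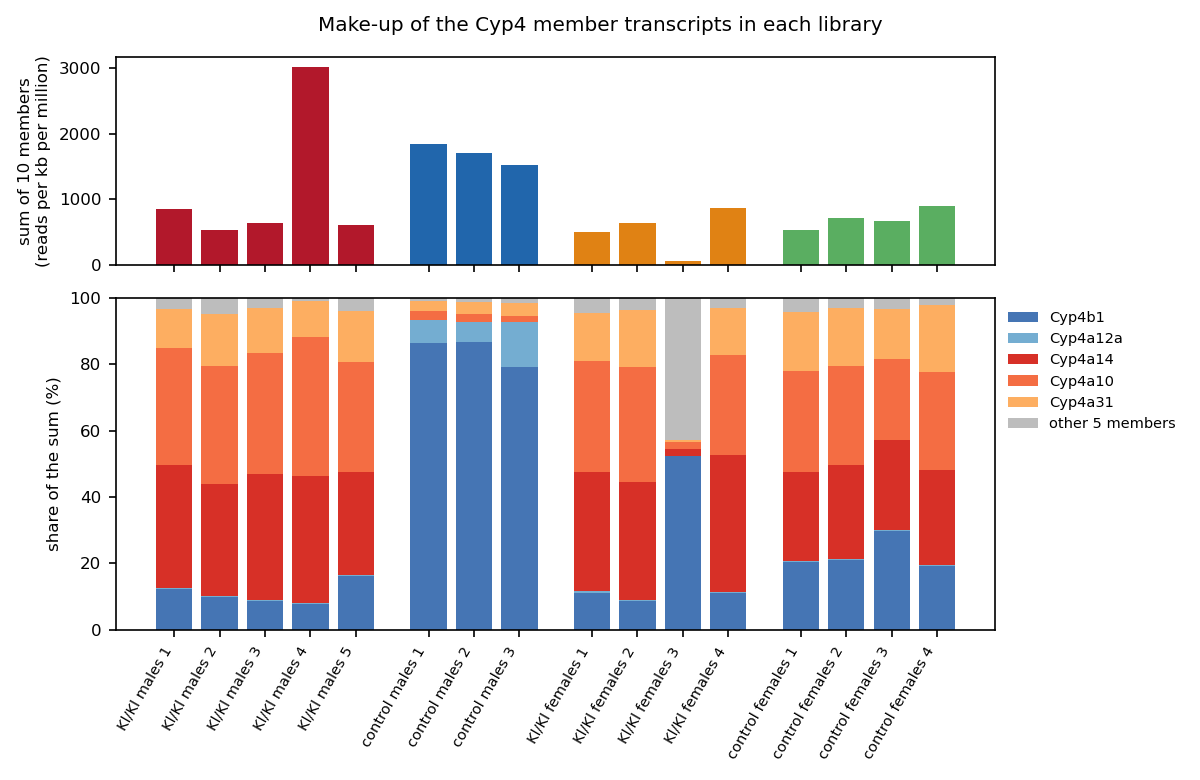
Upper panel: level by transcript length (RPKM, estimated reads), summed over the 10 members, in each library. Lower panel: share of that sum taken by Cyp4b1, Cyp4a12a, Cyp4a14, Cyp4a10 and Cyp4a31 each, and by the other 5 members together. Cyp4b1 fills 79.2% to 86.7% of the sum in control males, and Cyp4a14, Cyp4a10 and Cyp4a31 fill most of it in the other groups, except in Kl/Kl female 3, whose sum is 54.2.

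In females without Kl/Kl female 3, Cyp4b1 took 8.66% to 11.2% of the sum in Kl/Kl females and 19.4% to 29.7% in control females. Cyp4a14 took 35.5% to 41.2% in Kl/Kl females and 26.7% to 28.7% in control females, and these ranges did not overlap although the TPM of Cyp4a14 did. Cyp4a10 took 30.2% to 34.7% and 24.3% to 30.4% in Kl/Kl and control females. Shares of a sum move together, so a lower share of Cyp4b1 alone raises those of the others.

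The members that moved most are neighbours. The Cyp4a genes and Cyp4b1 lie within 348.679 kb of chromosome 4, in the order Cyp4a12a, Cyp4a12b, Cyp4a14, Cyp4a10, Cyp4a31, Cyp4a32 and Cyp4b1. Genes that fell lie at its ends, with Cyp4a14 and Cyp4a10, which rose, side by side between them. Within 200000 bases on either side the tables list 10 other genes, of which 2 were tested in males and 0 called, by limma. In males Efcab14 had a log2 change of 0.14 (limma adjusted p = 0.5568) and Mob3c one of 0.05 (limma adjusted p = 0.8172). On chromosome 17 Cyp4f14 and Cyp4f13 are also neighbours, and only Cyp4f14 was lower by voom in Kl/Kl males.

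**Figure D5:**
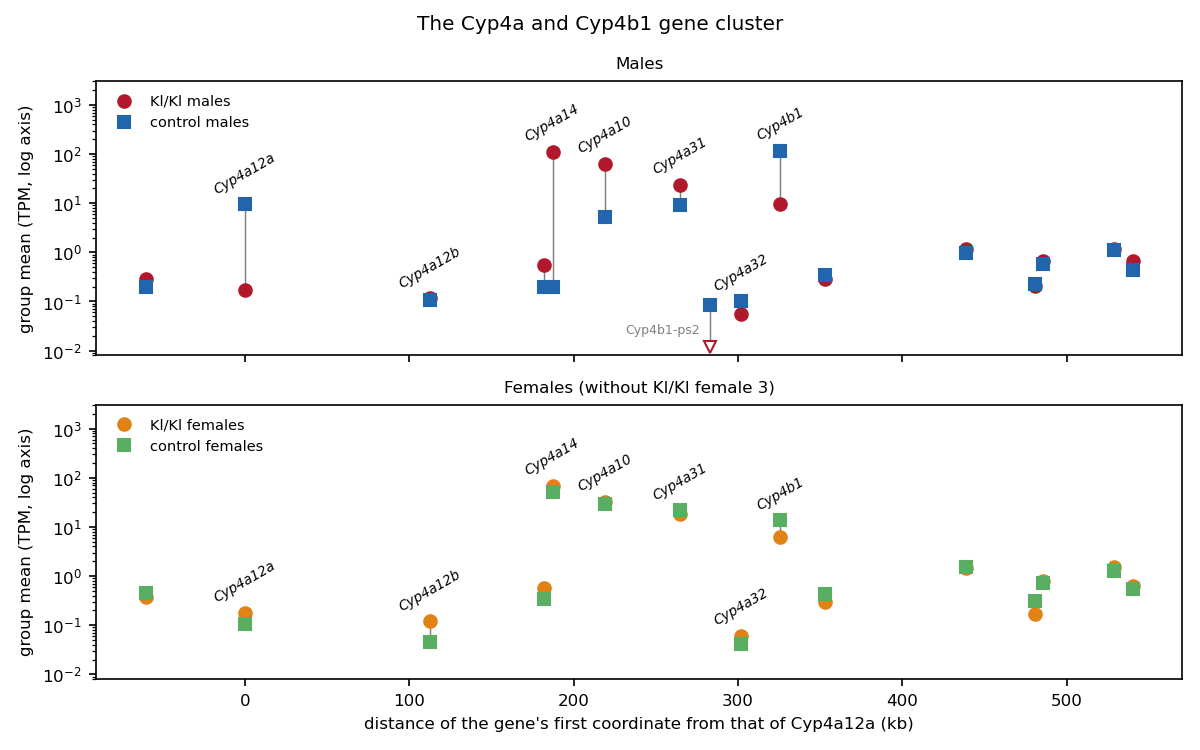
Mean level (TPM, log axis) of the genes on chromosome 4 around the Cyp4a and Cyp4b1 genes, against the distance from the first coordinate of Cyp4a12a in kb, for males (upper panel, 5 Kl/Kl and 3 controls) and females (lower panel, 3 Kl/Kl and 4 controls, without Kl/Kl female 3). Circles are Kl/Kl means, squares are control means, and the open triangle is a mean below the axis. Genes whose mean reached 0.05 TPM in 1 of the 2 groups are drawn. Genes named in italics are members, and the pseudogene Cyp4b1-ps2 and the genes without a name are not. In males the log2 changes of the members run from 6.11 for Cyp4a14 to -3.62 for Cyp4b1, and 0 of the 2 other genes tested were called.

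Other genes of fatty acid handling moved in part. Of 29 tested PPAR-alpha lipid genes 2 were higher and 2 lower in males, with a median log2 change of 0.54 (0.19 over all genes tested). Acsl1, which activates long-chain fatty acids, rose to 12.8 ± 8.27 TPM in Kl/Kl males (SD, n = 5), against 1.62 ± 0.78 TPM in control males (SD, n = 3), a log2 change of 2.28 (limma adjusted p = 0.006742; 2.00 and 0.03141 without control male 3). Acot1, an acyl-CoA thioesterase, rose by 1.96 (limma adjusted p = 0.03186), but its call was lost when Kl/Kl male 1, Kl/Kl male 2, control male 2 or control male 3 was left out (adjusted p up to 0.08037, without control male 3). Cd36, the fatty acid uptake receptor, fell to 0.601 ± 0.239 TPM in Kl/Kl males, against 5.93 ± 2.29 TPM in control males (log2 change -2.06, limma adjusted p = 0.0003763). Its mean reached 1 TPM through the control males alone, so Cd36 had to differ to be tested at all. Acadm, the medium-chain acyl-CoA dehydrogenase of mitochondria, fell by 0.98 on the log2 scale (limma adjusted p = 0.04393), and stayed called only when control male 3 was the library left out (adjusted p up to 0.1274 without another). An unadjusted p under 0.05 was seen for 16 of the 29 in males, and for 2271 of the 8439 genes tested. Without control male 3 it was seen for 7 of the 29, with 1 called higher and 2 lower and a median of 0.32. The count over all genes without control male 3 is not given here.

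Among 11 tested partners of omega-oxidation, 1 was higher and 3 lower in males, with a median of -0.14. Acsm3, a medium-chain acyl-CoA synthetase, fell by 4.50 on the log2 scale (limma adjusted p = 3.179e-06), to 0.275 TPM in Kl/Kl males, against 29.3 TPM in control males (0.183 TPM without Kl/Kl male 5). Its mean reached 1 TPM through the control males alone, so Acsm3 had to differ to be tested at all. Adh1, which oxidises omega-hydroxy fatty acids, fell by 1.66 (limma adjusted p = 0.001983), and Cyb5a, the cytochrome that passes electrons to P450 enzymes, fell by 1.04 (limma adjusted p = 0.004405). Each of these 3 stayed past the threshold whichever single library was left out. Sult1d1, a sulfotransferase, rose by 1.15 (limma adjusted p = 0.04308) and stayed called only when Kl/Kl male 5 was the library left out (adjusted p up to 0.09694 without another). Without control male 3, 0 of the 11 were higher and 5 lower.

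Of 7 tested genes of arachidonic acid metabolism, 2 were higher and 1 lower in males, with a median of 0.02. Cyp2j13, of the epoxygenase subfamily Cyp2j, averaged 0.0898 TPM in Kl/Kl males, against 9.61 TPM in control males, a log2 change of -3.18 (limma adjusted p = 3.096e-05; Kl/Kl mean 0.0508 TPM without Kl/Kl male 5). Its mean reached 1 TPM through the control males alone, so Cyp2j13 had to differ to be tested at all. Ephx1, an epoxide hydrolase (log2 change 0.59, limma adjusted p = 0.02989), and Ptgs1, the constitutive cyclooxygenase (0.49, limma adjusted p = 0.04247), rose. With 1 library left out, Ephx1 stayed called only without Kl/Kl male 5 or control male 3 (adjusted p up to 0.08925 without another) and Ptgs1 only without control male 3 (up to 0.104). Of 3 tested hormone receptors and mediators Hsd17b11, a steroid and lipid droplet dehydrogenase, fell by 1.65 (limma adjusted p = 0.001396; median of the list -0.69). In females 0 genes of these 4 lists were called, with or without Kl/Kl female 3. In the order of the lists above, 0, 0, 1 and 1 genes had an unadjusted p under 0.05 with all libraries, and 5 of 28, 3 of 10, 3 of 8 and 1 of 7 without Kl/Kl female 3. Over all genes it was seen for 414 of 8596 with all libraries, and the count without Kl/Kl female 3 is not given here. Among the abundant list genes in females was Acadvl, the very-long-chain acyl-CoA dehydrogenase, at 59.9 ± 5.64 TPM in Kl/Kl females and 57.3 ± 2.82 TPM in control females (SD, n = 4 each). The change of Adh1 differed between the sexes (male minus female -1.57, limma adjusted p = 0.02061, and -1.86, limma adjusted p = 0.0004294, without Kl/Kl female 3 and control male 3).

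The genes most like a member across libraries were sought among 2120 protein-coding genes whose mean reached 5 TPM in both tables, by Pearson's r of log2(TPM + 1) centred within each table, over the 15 libraries other than Kl/Kl female 3. The value is a description, since the libraries share their group differences and their scaling. For Cyp4a12a they were Cyb5a (r = 0.968), Ldhd (0.939) and Amacr (0.929), and for Cyp4a14 Acsl1 (0.964), Cox6b2 (0.962) and Hpd (0.958). For Cyp4b1 they were Cyp2a4 (0.921), Ldhd (0.919) and Serpinf2 (0.902), and for Cyp4f14 Aadat (0.939), Napsa (0.920) and Scd1 (0.893). Aadat averaged 4.76 and 8.03 TPM in Kl/Kl and control males and 6.93 and 30.9 TPM in Kl/Kl and control females, an order like that of Cyp4f14. Among the members Cyp4a10 and Cyp4a14 had r = 0.951, Cyp4a12a and Cyp4b1 r = 0.888, and Cyp4a12a and Cyp4a14 r = -0.948.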

How the data were processed

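TPM from 16 libraries in 4 groups were deposited by the authors as 2 tables, male and female. The submitters' processing notes name the build mm39 and Partek, and per the file headers the annotation was Ensembl. Aligner, counting and use of strand: not given in the sources used here. In the deposited TPM no value was 0, a gene without a read holds 0.0001 read over its genomic span, and the columns of a table share 1 total (male over female 1.08). Reads were estimated by undoing that division. Of low estimated reads 71.3% to 73.9% were whole within 0.05, so they are estimates. Precision rests on the spread among libraries.

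Values were tested as log2(TPM + 1) with limma 3.58.1 in R 4.3.3 (lmFit, then eBayes with trend), where the mean over the libraries fitted reached 1 TPM, with Benjamini-Hochberg adjustment over all genes tested and a threshold of 0.05. Voom on estimated reads used genes averaging 10 or more estimated reads. The exact permutation tests of TPM means were two-sided, in SciPy 1.17.1 under Python 3.11.15, and the fits were tested on simulated data. Ranks run over all genes tested. Transcripts came from GENCODE M21, promoters from RefSeq (GRCm38.p6, 5 members matched), sequences were compared with Biopython 1.88, and plots were drawn with matplotlib 3.10.9.

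Named were all members, Kl, up to 4 called genes of each of 4 lists, the 3 genes most like 4 members, and the 8 other Cyp4 genes of the tables if their mean reached 1 TPM, which 0 did. Some list genes that this rule names are not reported here. Cyp4b1-ps2, Efcab14, Mob3c and the marker genes were named after their values were seen. The members and lists were chosen with earlier results of these data known. The alternatives were other pseudocounts, filters and scalings, array weights, voom, a replicate block, a 4-group fit and leaving out libraries. Voom fits with the libraries that stood apart left out were added after seeing the data.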

Additional observations from a re-analysis of the deposited data

Results flagged for a closer look

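On the log2(TPM + 1) scale, 30 sets of values, each a member in a group of 4 or 5 libraries, were searched for a single library far from the others, by its gap to the nearest value over the range of the group. Of these 7 held one. The rule flags about 1 in 20 sets by chance, but the members share libraries and several vary together. The sets are thus not independent, and the count cannot be judged against that rate. In Kl/Kl males replicate 4 was far above the others for Cyp4a10 (gap over range 0.744), Cyp4a31 (0.854) and Cyp4a12b (0.736). In Kl/Kl females replicate 3, the library without kidney genes, was far below the others for Cyp4a14 (0.832), Cyp4a10 (0.863) and Cyp4f13 (0.937). In control females replicate 1 was above the others for Cyp4a12b (0.954), at 0.0707 TPM against 0.0359 to 0.0374 TPM.

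For Cyp4a12a the test of the difference between the sexes gave a male change minus female change of -3.200 on the log2 scale (limma adjusted p = 1.368e-08), and voom did not call it (voom adjusted p = 0.1736). Its female means, 0.134 TPM in Kl/Kl and 0.104 TPM in control females, lay under the 1 TPM filter, so the female change could only be near 0 on this scale and the value restates the male change. In all 5 Kl/Kl males Cyp4a12a lay below all 3 control males, while Kl/Kl and control females overlapped.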

How the results depend on the processing

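In males 4 members and 500 genes were called. Counts of all genes were 322 (mean of at least 5 TPM), 1153 (rescaling; 455 higher and 698 lower, against 316 and 184), 2829 (array weights), 2724 (voom), 227 (replicate block), 2225 (voom without control male 3, added after seeing the data) and 185 to 909 without each library, with 3 or 4 members, and voom called 7 members. In females 0 members and 3 genes were called. Counts were 8 (no filter), 327 (array weights, with 1 member, Cyp4b1), 0 (voom), 0 (replicate block), 7 (4-group fit), 23 (voom without Kl/Kl female 3) and 2 to 9 without each library. For the sex difference, 1 member and 18 genes, counts were 0 members and 3 genes (mean of at least 5 TPM), 3 and 35 (rescaling), 4 and 1036 (array weights), 0 and 67 (voom), 3 and 338 (without both libraries that stood apart), 3 and 610 (voom without both), 10 genes (pseudocount 0.1), 117 (no filter) and 9 (replicate block), and 1 to 3 members and 9 to 75 genes without each library. The cause of these shifts was not tested; a higher filter leaves fewer genes. Among the log2 changes tested, signs turned only for members that were not called: Cyp4f13 in males with voom (-0.0385) and in the sex difference with array weights (-0.0210). In females Cyp4a10, Cyp4a14 and Cyp4f13 turned positive with array weights (0.1218, 0.3169 and 0.0963), without Kl/Kl female 3 (0.1313, 0.3564 and 0.0943, the top of ranges that start, without Kl/Kl female 4, at -1.6127, -1.7876 and -0.2978) and with voom without it (0.0471, 0.2722 and 0.0704). For members under 1 TPM, which had no such test, the difference of means also turned negative: Cyp4a12b in males (0.00932 TPM) to -0.0103 with rescaling and at lowest -0.0317, without Kl/Kl male 4, Cyp4a12a in females (0.0307 TPM) to -0.0109 without Kl/Kl female 1, and Cyp4a32 in females (0.00548 TPM) at lowest to -0.0253, without Kl/Kl female 4. Whether replicate numbers pair the libraries cannot be settled from so few libraries. Correlations of same-numbered deviations were -0.177 to 0.041 in males and -0.116 to 0.290 in females, where 0.290 belongs to replicate 4. Kl/Kl female 3 entered the group mean from which the Kl/Kl female deviations were taken. The replicate block changed no member's call. For members under 1 TPM, a few reads per library limit the precision.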
